A study of Mus musculus with 3 samples.

Results

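The interferon-gamma induced GTPases are a group of 10 mouse genes, Gbp2, Gbp3, Gbp4, Gbp5, Gbp7, Iigp1, Irgm1, Irgm2, Igtp and Ifi47, chosen by symbol from the 55401 genes listed in the count tables. All 10 were found, and all 10 passed the minimum level used for counting differences. They were followed in 3 single-cell RNA libraries of leukocytes from melanoma grafts, from mice aged 4, 12 and 20 months. The grafts were grown from YUMM1.7, a mouse melanoma line, of which 500000 cells were injected under the skin of 7 mice of each age. Tumours were taken after 18 days, and live cells that bound an antibody to CD45.2, a surface protein of leukocytes, were sorted. By the labels every group carried the same graft and the groups differed by the age of the host. Tumour-free tissue was not analysed here. Strain and sex are not given in the sources used here, nor is it stated how the 7 mice of an age went into its library. Because each age had 1 library, no difference between ages has a replicate check and no p-value is given. All intervals are at the 95% level and account for counting error alone.

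Interferon gamma is a cytokine that T cells and natural killer (NK) cells release. It binds a receptor of the chains Ifngr1 and Ifngr2, and signalling from it, in part through the transcription factor Irf1, switches on a large set of genes. Among the most strongly induced are 2 families of GTPases. The guanylate-binding proteins (Gbp genes) assemble on the membranes of pathogens and of the vacuoles that hold them. The immunity-related GTPases include effectors that attack such vacuoles (Iigp1, Ifi47) and regulators that hold the effectors inactive on the cell's own membranes (Irgm1, Irgm2, Igtp). In tumours these genes are commonly read as a record of interferon exposure, and type I interferons can induce many of them too.

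Those of the 10 genes with coordinates lie on chromosomes 3, 5 and 11. On GRCm38, with GENCODE M21 annotation, the plus strand of chromosome 3 holds Gbp5 (142493978 to 142522344), Gbp7 (142530342 to 142550149), Gbp3 (142560026 to 142573209) and Gbp2 (142620602 to 142638008). Gbp4 lies on the minus strand of chromosome 5 (105115767 to 105139586). Chromosome 11 holds Irgm1 on the minus strand (48861968 to 48871683) and, on the plus strand, Ifi47 (49076587 to 49096974), Igtp (58199556 to 58207591) and Irgm2 (58199618 to 58222782). The span of Igtp lies almost wholly inside that of Irgm2 on the same strand, and the 2 genes share 162 exon bases. Gbp7 shares 637 exon bases with the pseudogene Gm43802 and Ifi47 shares 111 with Olfr56, so reads there may be split. No coordinates are given for Iigp1.

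Promoter sequence was read for 8 of the 10 genes from RefSeq windows on GRCm38.p6 that run from 250 bases before to 50 bases after the start of transcription. Gbp4 and Iigp1 were not matched. The windows were searched on both strands for the letters TTCNNNGAA, the gamma-activated sequence (GAS), and for GAAA, any 2 bases and GAAA again, the core of the interferon-stimulated response element (ISRE), to which interferon regulatory factors bind. The ISRE core was found in 7 of the 8 genes, against 3.44% of 32851 promoter windows. GAS letters were found in 4 of the 8, against 8.30%, and both in 4 of the 8 (Gbp5, Gbp7, Irgm2, Igtp), against 0.454%. Neither was found in the Ifi47 window. The following stretches are shown because they carry these letters, which are in capitals. Each is written 5′ to 3′ on the strand of its gene.
Irgm2, chr11:58214887-58214937, plus strand: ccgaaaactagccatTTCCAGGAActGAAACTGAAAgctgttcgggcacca
Igtp, chr11:58199496-58199546, plus strand: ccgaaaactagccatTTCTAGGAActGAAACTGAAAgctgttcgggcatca
Irgm1, chr11:48871420-48871465, minus strand: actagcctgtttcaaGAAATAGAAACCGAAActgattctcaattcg
Gbp2, chr3:142620589-142620628, plus strand: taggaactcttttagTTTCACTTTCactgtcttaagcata
Gbp3, chr3:142559984-142560029, plus strand: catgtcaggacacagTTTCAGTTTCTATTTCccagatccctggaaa
Gbp7, chr3:142530215-142530307, plus strand: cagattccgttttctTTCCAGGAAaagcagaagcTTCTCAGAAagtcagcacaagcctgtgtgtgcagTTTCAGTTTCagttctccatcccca
In Irgm2 and Igtp a GAS and an ISRE core stood side by side, separated by the bases "ct". The 2 stretches of 51 bases matched at 49 positions and differed by C19T and C49T, counted from 1 at the 5′ end with the base of Irgm2 first. The start of Irgm2 in RefSeq lies inside its GENCODE span. Over the whole windows of 300 bases, 82.3% of bases were identical after alignment. In Irgm1 and Gbp3 a pair of ISRE cores overlapped, and Gbp7 carried a pair of GAS before a single ISRE core. Gbp2 carried a single ISRE core 59 bases before the start. A match of letters describes the sequence and says nothing of binding.

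The libraries held 14393 to 14684 cells and 110371225 to 127850782 counts, and after removal of likely doublets 13528, 13774 and 13803 cells were kept in order of age. Between 5 and 7 cell barcodes of a library also occurred in another. Cells were grouped without the 10 genes and without any of the interferon lists used below, and clusters were named from marker genes. Macrophage-like cells numbered 2556, 2943 and 3492, monocyte-like cells 2297, 1146 and 1323, dendritic cell-like cells 679, 618 and 701, T-like cells 4995, 6583 and 6162, and NK-like cells 2308, 2097 and 1619. A cluster of 783 cells led by Arg1, between monocytes and macrophages, stayed unnamed. Of 2 T-like clusters nearly every cell came from 1 library: 1 of 1731 cells, in which 1660 were of the 12-month library, and 1 of 508 cells, in which 492 were of the 20-month library. Markers of neutrophils summed to 188, 1401 and 1607 counts per 1000000 (CPM) in monocyte-like cells, and to 152, 185 and 193 once the 9, 18 and 11 cells with 20 or more neutrophil counts were left out. Without those cells the summed level of the 10 genes in monocyte-like cells had log2 ratios of −0.32 at 12 and −0.27 at 20 over 4 months, close to the values below. Marker transcripts of a class were also counted in other classes: C1qa, a gene of macrophages, stood in NK-like cells at 4.36% to 6.07% of its macrophage-like level. Cd3e, a gene of T cells, stood in its lowest class at 9.97% to 18.4% of its T-like level. Whether these counts were RNA free in the suspension was not tested.

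Which cells carried the GTPase transcripts was asked first. Levels are given as CPM of the counts summed over all cells of a class in a library, in the order 4, 12 and 20 months, and levels are compared between cells, not between genes. The summed level of the 10 genes was highest in monocyte-like cells, at 2394, 1900 and 1978 CPM. T-like cells had 1825, 1620 and 1544 CPM and macrophage-like cells 1646, 1528 and 1443, and the ranges of these 2 classes over the libraries overlapped. NK-like cells (1115, 1131 and 947 CPM) and dendritic cell-like cells (1196, 1009 and 927 CPM) were lowest and overlapped too. Taken within each library, monocyte-like cells exceeded T-like cells by 0.33 on the log2 scale on average (0.23 to 0.39 over the 3 libraries). Macrophage-like cells were below T-like cells by a mean log2 ratio of −0.11 (−0.15 to −0.08), NK-like cells by −0.65 (−0.71 to −0.52) and dendritic cell-like cells by −0.68 (−0.74 to −0.61). When clusters of a class were given equal weight the macrophage-like ratio moved to −0.07, when each cell was given equal weight to −0.18 and with coarser clusters to −0.17.

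**Figure D1:**
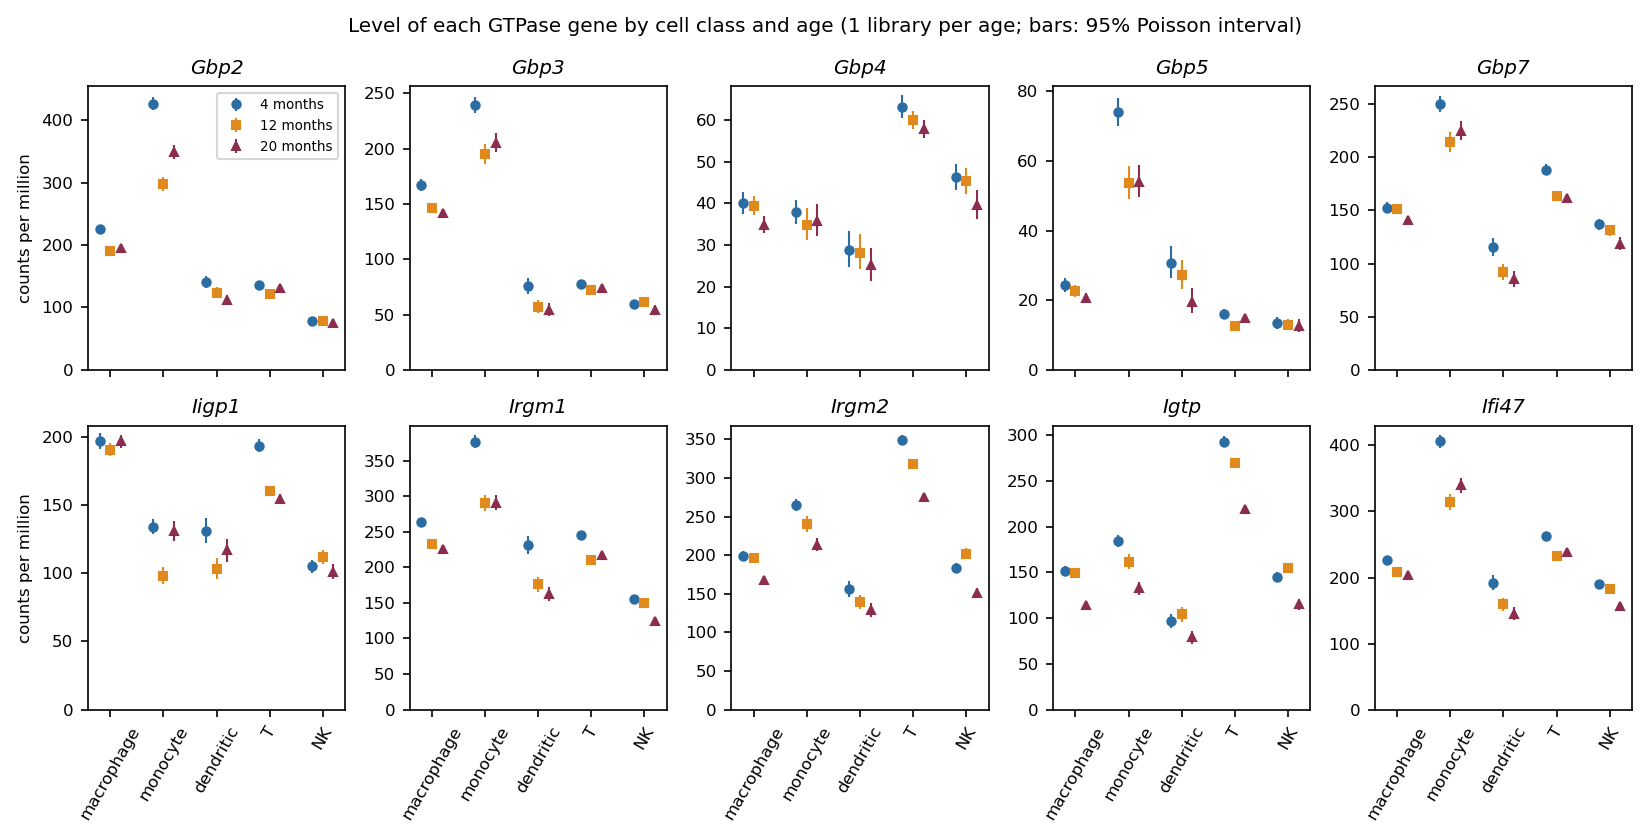
Level of each of the 10 genes (vertical axes, CPM from 0, a scale for each gene) in 5 cell classes at 4, 12 and 20 months, with 1 library per age and bars for the 95% Poisson interval. Gbp2, Gbp3 and Gbp5 were highest in monocyte-like cells and Gbp4, Irgm2 and Igtp in T-like cells in each of the 3 libraries.

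Single genes differed in the class where they were highest. Gbp2, which coats pathogen vacuoles, had 427, 298 and 350 CPM in monocyte-like cells and 225, 191 and 196 CPM in macrophage-like cells. Its level was 137, 121 and 131 CPM in T-like cells and 78.8, 78.7 and 74.7 CPM in NK-like cells. The lowest monocyte-like library was thus above the highest library of every other class, while the T-like and dendritic cell-like ranges (112 to 140 CPM in the latter) overlapped. Gbp3, a neighbour of Gbp2 on chromosome 3, had 239, 195 and 206 CPM in monocyte-like cells, 167, 146 and 142 CPM in macrophage-like cells and 77.5, 71.7 and 74.0 CPM in T-like cells. By the mean over libraries its order over the classes was that of Gbp2, but its dendritic cell-like and NK-like ranges overlapped. Gbp5, which promotes inflammasome assembly, had 74.0, 53.8 and 54.1 CPM in monocyte-like cells, followed by dendritic cell-like cells with 30.7, 27.2 and 19.6 CPM and macrophage-like cells with 24.4, 22.5 and 20.6 CPM. T-like (12.6 to 16.1 CPM) and NK-like cells (12.6 to 13.4 CPM) did not differ beyond their ranges. In its lowest class Gbp5 stood at 18.1%, 23.3% and 23.3% of the monocyte-like level in the 3 libraries, above the shares of Cd3e (9.97%, 17.5% and 18.4%) and of the macrophage gene C1qa (4.36%, 5.77% and 6.07%) in their lowest classes, and how much of the lymphoid Gbp5 was free RNA was not tested.

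Gbp4, Irgm2 and Igtp were instead highest in T-like cells, and for Irgm2 and Igtp monocyte-like cells came second. Igtp, a regulator of the family, had 293, 270 and 219 CPM in T-like cells against 185, 162 and 133 CPM in monocyte-like cells. Macrophage-like cells had 152, 150 and 114 CPM, NK-like cells 145, 155 and 115 CPM and dendritic cell-like cells 96.6, 104 and 78.9 CPM. The T-like libraries were all above every library of the other classes, and the monocyte-like, macrophage-like and NK-like ranges overlapped. Irgm2, the neighbour whose promoter stretch is nearly the same, had 349, 317 and 275 CPM in T-like cells, 265, 240 and 214 CPM in monocyte-like cells and 156, 139 and 129 CPM in dendritic cell-like cells. Gbp4 had 63.2, 60.1 and 57.8 CPM in T-like cells and 46.3, 45.4 and 39.5 CPM in NK-like cells, above or beside macrophage-like (34.9 to 40.0 CPM), monocyte-like (34.8 to 37.8 CPM) and dendritic cell-like cells (25.2 to 28.8 CPM). Of the 60-base windows near the 3′ end of Gbp4, 11.1% also occur in Gbp6, Gbp9, Gbp11 or Gm43302, so reads may have been divided among these copies.

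Gbp7, Irgm1 and Ifi47 were highest in monocyte-like cells too, with mean log2 ratios over T-like cells of 0.42, 0.50 and 0.53, below those of Gbp2 (1.45), Gbp3 (1.52) and Gbp5. Ifi47, an effector of the family, had 406, 314 and 340 CPM there and 262, 232 and 239 CPM in T-like cells. Irgm1, a regulator that also acts in autophagy, had 376, 290 and 290 CPM in monocyte-like cells and 263, 233 and 226 CPM in macrophage-like cells, the latter overlapping T-like cells (211 to 246 CPM). Gbp7 had 251, 214 and 225 CPM in monocyte-like cells and 189, 164 and 162 CPM in T-like cells. Iigp1, an effector that loads onto vacuoles, followed neither order. It had 197, 190 and 197 CPM in macrophage-like cells and 193, 160 and 154 CPM in T-like cells, ranges that overlapped, and lay between 98.1 and 134 CPM in monocyte-like, dendritic cell-like and NK-like cells.

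Counting genes at least 1.5-fold apart from T-like cells in every library gave the following counts. In monocyte-like cells 3 of the 10 were higher (Gbp2, Gbp3, Gbp5) and 2 lower (Gbp4, Igtp), against 26.6% and 24.9% of all genes tested. In macrophage-like cells 1 was higher (Gbp3) and 3 lower (Gbp4, Irgm2, Igtp), against 19.6% and 17.1%. In dendritic cell-like cells 0 were higher and 4 lower (Gbp4, Gbp7, Irgm2, Igtp), against 26.2% and 13.5%. In NK-like cells 0 were higher and 3 lower (Gbp2, Irgm2, Igtp), against 3.56% and 5.37%. Shares near the background, as in the first 2 classes, are no result about the 10 genes. In each direction the largest mean differences from T-like cells were those of Gbp5 in monocyte-like cells, 4.15-fold above T-like cells (log2 ratio 2.05, 1.86 to 2.20), and of Igtp in dendritic cell-like cells (log2 ratio −1.48, −1.60 to −1.37).

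**Figure D2:**
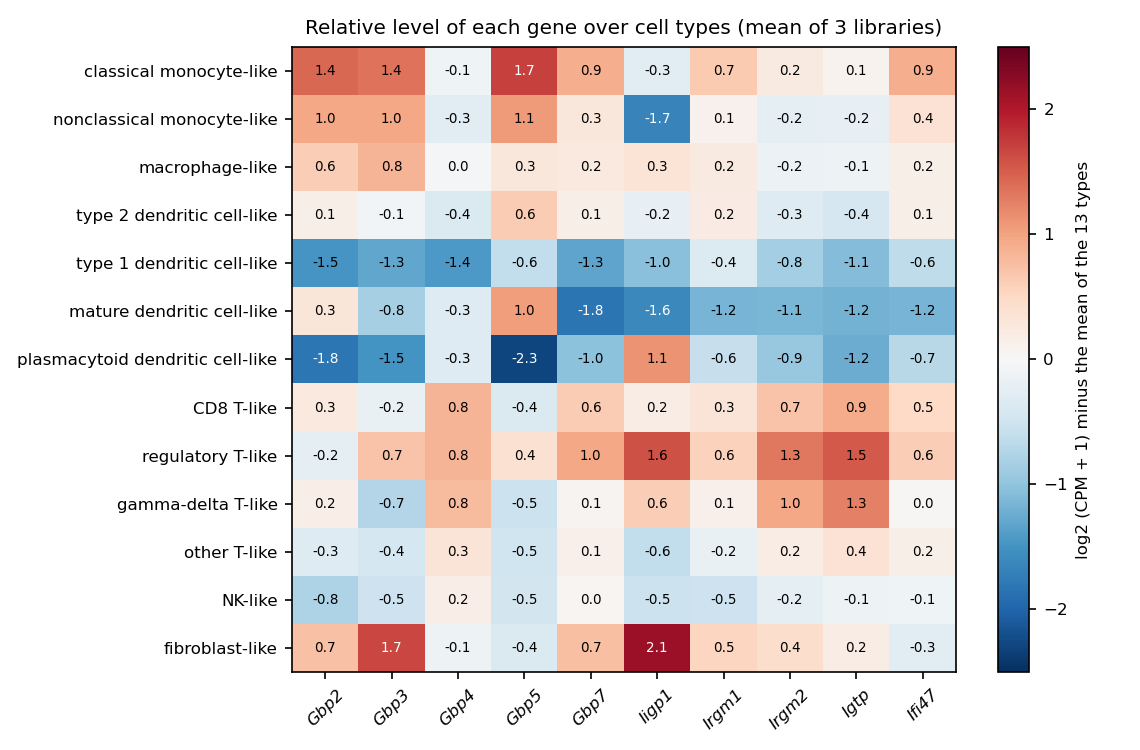
Each gene's level in 13 cell types as log2 (CPM + 1) minus its mean over those types, averaged over the 3 libraries, red where higher and blue where lower. Gbp5 stands out in classical monocyte-like cells, Igtp and Irgm2 in regulatory and, less so, gamma-delta T-like cells, and Iigp1 in fibroblast-like, regulatory T-like and plasmacytoid dendritic cell-like cells. Gamma-delta T-like is here the cluster led by Trgc1, Cd163l1 and Il17a alone.

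Clusters within a class were also far apart. Among T-like cells the highest summed level was in regulatory T-like cells, led by Tnfrsf4, Areg and Penk, with 2897, 2645 and 2312 CPM. CD8 T-like cells had 1960, 1886 and 1704 CPM, and a dividing T-like cluster led by histone genes had 1074, 1058 and 1152 CPM. Regulatory T-like cells had the most Igtp (491, 470 and 357 CPM) and Irgm2 (598, 547 and 420 CPM) of all named types. Their libraries did not overlap with those of CD8 T-like cells for Igtp (236 to 319 CPM) or Irgm2 (295 to 373 CPM). They did overlap with gamma-delta T-like cells, at 444, 397 and 254 CPM of Igtp and 480, 494 and 254 CPM of Irgm2. That type is a single cluster of 53, 67 and 74 cells, led by Trgc1, Cd163l1 and Il17a. A larger cluster led by Klra6 had the gamma-delta receptor genes Trdc, Trgc1, Trgc2 and Trgc4 among its 10 leading genes but was not named gamma-delta. It had 260, 238 and 214 CPM of Igtp and 316, 292 and 267 CPM of Irgm2. Iigp1 in regulatory T-like cells, at 510, 479 and 405 CPM, was above the 172 to 179 CPM of CD8 T-like cells by a wider margin. Gbp2 was lower in regulatory (97.1 to 131 CPM) than in CD8 T-like cells (154 to 167 CPM).

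Dendritic cells divided in a similar manner. Mature dendritic cell-like cells (769, 709 and 632 CPM) and type 1 dendritic cell-like cells (721, 718 and 661 CPM) had the lowest mean sums of all clusters. Type 2 dendritic cell-like cells had 1467, 1280 and 1107 CPM. Mature dendritic cell-like cells had more Gbp2 (178, 161 and 155 CPM) than type 1 cells (38.2 to 51.7 CPM), but less Gbp7 (25.8 to 42.7 CPM) than type 2 cells (121 to 160 CPM). Plasmacytoid dendritic cell-like cells had the most Iigp1 of the dendritic types, at 411, 241 and 360 CPM, beside little Gbp2, at 34.96, 29.1 and 48.0 CPM. These levels rest on 62, 58 and 52 cells.

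Monocyte-like cells held the cluster with the highest sum. A cluster led by AA467197, Slfn4 and Aplnr, with 334, 96 and 126 cells, had 3328, 3235 and 3500 CPM, and Gbp2 alone had 713, 620 and 809 CPM there. Rsad2 and Cxcl10, of the interferon lists, were also among its 10 leading genes, and Isg15 had 4731, 4345 and 4135 CPM. Genes outside the lists, such as Slfn4 and Cxcl11, were not kept out of the grouping. The cluster and its summed level may thus not be independent. The largest monocyte-like cluster, led by S100a8 and F13a1, had 2248, 1713 and 1743 CPM, and nonclassical monocyte-like cells, which patrol vessels, had 1539, 1430 and 1461 CPM. Nonclassical cells had little Iigp1 (24.7 to 65.5 CPM) against 104 to 138 CPM in classical monocyte-like cells. The Slfn4-led cluster made up 14.5%, 8.38% and 9.52% of the monocyte-like class in the 3 libraries. Among macrophage-like cells, a cluster led by Il1b, Cxcl2 and Atf3 (1881, 1619 and 1754 CPM) exceeded the one led by complement genes C1qa and C1qc (1537, 1473 and 1367 CPM) in each library.

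**Figure D3:**
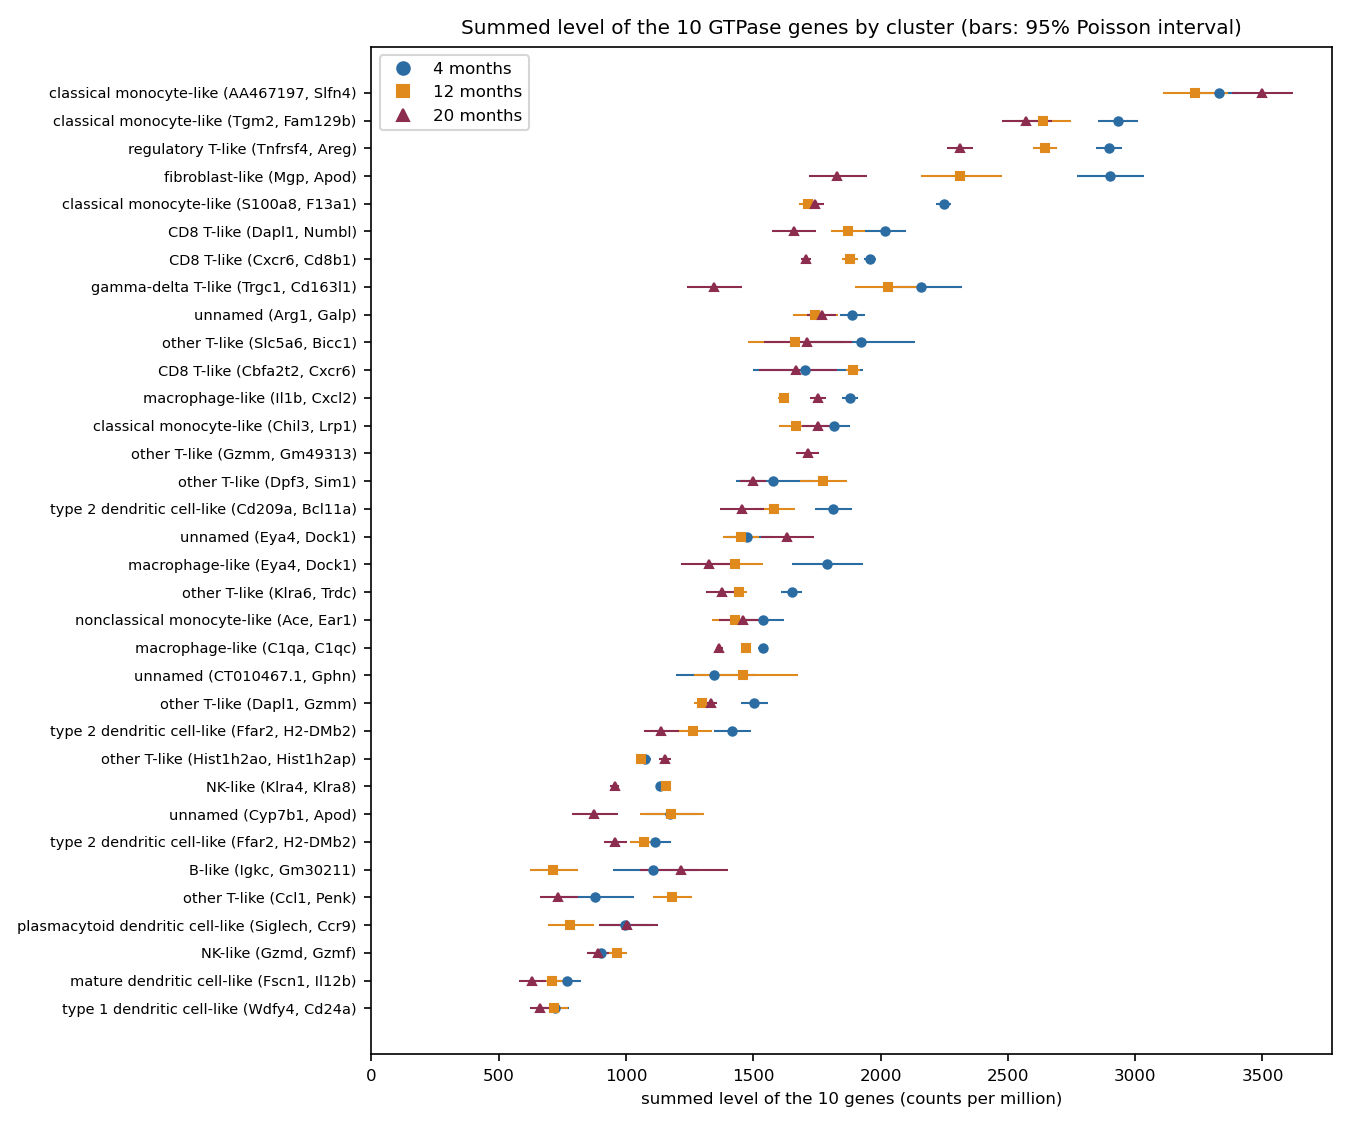
Summed level of the 10 genes (horizontal axis, CPM from 0) in each cluster, named by type and its first 2 leading genes and ordered by mean, with 1 point per library and bars for the 95% Poisson interval. Points for fewer than 20 cells are not drawn. The Slfn4-led monocyte-like cluster lies between 3235 and 3500 CPM and type 1 dendritic cell-like cells between 661 and 721 CPM.

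How the 10 genes differed with the age of the host was asked next. The summed level was lower at 20 than at 4 months in all 5 classes, by between 0.19 and 0.37 on the log2 scale, and lower at 12 than at 4 months in 4 of them. Both comparisons share the 4-month library. At 20 against 4 months the log2 ratio was −0.37 in dendritic cell-like cells (−0.42 to −0.32), −0.28 in monocyte-like cells (−0.30 to −0.25), −0.24 in T-like cells (−0.26 to −0.23), −0.24 in NK-like cells (−0.27 to −0.20) and −0.19 in macrophage-like cells (−0.21 to −0.17). At 12 against 4 months it was −0.33 in monocyte-like cells (−0.36 to −0.31), −0.25 in dendritic cell-like cells (−0.29 to −0.20), −0.17 in T-like cells (−0.19 to −0.16) and −0.11 in macrophage-like cells (−0.13 to −0.09). In NK-like cells it was 0.02, with an interval that held 0 (−0.01 to 0.05).

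Part of these values moved with the makeup of the classes. With clusters weighted equally, the monocyte-like ratios became −0.15 at 12 and −0.11 at 20 months, the T-like ratio at 12 months −0.05, the dendritic cell-like ratios −0.16 and −0.23, and the NK-like ratio at 20 months −0.14. The macrophage-like ratio at 12 months ranged from −0.20 with equal weights to −0.05 with coarser clusters, and the T-like ratio at 20 months was −0.15 with TMM scaling. Of T-like cells, the regulatory cluster with the highest sum made up 14.6% at 4 and 8.02% at 20 months, and a cluster led by Dapl1 and Gzmm (1503, 1297 and 1334 CPM) 5.47% and 18.9%. By type, the T-like sum was lower at 20 months in regulatory, CD8 and gamma-delta T-like cells. The remaining T-like cells, pooled, were not lower, at 1322, 1230 and 1331 CPM. Of their clusters, that led by Klra6 was lower at 20 than at 4 months (log2 ratio −0.261, −0.337 to −0.186). So was that led by Dapl1 and Gzmm (−0.172, −0.229 to −0.115). The dividing cluster was higher (0.102, 0.058 to 0.146). Those led by Dpf3, Ccl1 and Slc5a6 were lower with intervals that held 0. The cluster found almost only at 20 months, at 1714 CPM, had too few cells at 4 months to compare. In the 32 clusters that had at least 20 cells at both ages, the sum was lower at 20 than at 4 months in 27. The interval was below 0 in 19 of these. In 5 clusters the sum was higher, with the interval above 0 in 3, the Slfn4-led cluster among them.

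At 20 against 4 months all 10 genes were lower in monocyte-like, dendritic cell-like, T-like and NK-like cells, where 41.8%, 47.9%, 67.8% and 60.9% of all genes tested were lower. In macrophage-like cells, where 53.9% of genes were lower, the same held for 9 genes, and Iigp1 was level. The counting interval held 0 for Gbp4 and Iigp1 in monocyte-like, Gbp4 in dendritic cell-like and Gbp3 and Gbp5 in T-like cells. In NK-like cells it held 0 for Gbp2, Gbp3, Gbp5 and Iigp1. The median log2 ratio of the 10 genes was −0.21 in macrophage-like, −0.27 in monocyte-like, −0.36 in dendritic cell-like, −0.16 in T-like and −0.22 in NK-like cells, beside −0.02, 0.04, 0.01, −0.10 and −0.05 for all genes. With TMM or median-of-ratios scaling, Gbp2 and Gbp3 turned to slightly higher in T-like cells and 8 of the 10 were lower. With clusters weighted equally, 8 were lower in monocyte-like, 9 in T-like and 7 in NK-like cells. A difference of 1.5-fold or more was seen, among the 10 genes, for Gbp5 in dendritic cell-like cells only, at 30.7 against 19.6 CPM (log2 ratio −0.65, −0.99 to −0.31), where 2.35% of genes were lower by that much. With coarser clusters, and with clusters weighted equally, Gbp5 no longer passed. The other 4 classes had 0 such genes, beside 1.05% of genes in macrophage-like, 0.951% in monocyte-like, 1.2% in T-like and 0.641% in NK-like cells. None of the 10 was higher by 1.5-fold, a size that 1.68%, 2.15%, 3.27%, 3.2% and 2.08% of genes reached in macrophage-like, monocyte-like, dendritic cell-like, T-like and NK-like cells.

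At 12 against 4 months all 10 genes were lower in monocyte-like, T-like and macrophage-like cells (38.7%, 59.7% and 53.3% of all genes), 9 in dendritic cell-like cells (50.1%) and 6 in NK-like cells (55.1%). None was lower by 1.5-fold, as 0.891%, 0.773%, 0.686%, 1.46% and 0.764% of genes were in these classes, and none higher, as 3.3%, 2.43%, 2.29%, 3.08% and 2.2% were. The counting interval held 0 for Gbp4 in every class and for all 6 lower genes in NK-like cells. It also held 0 for Gbp5, Gbp7, Iigp1, Irgm2 and Igtp in macrophage-like cells and for Gbp5 in dendritic cell-like cells. With TMM scaling 1 of the 10 was lower by 1.5-fold in monocyte-like cells. The median of the 10 genes was −0.33 in monocyte-like, −0.18 in T-like, −0.08 in macrophage-like, −0.22 in dendritic cell-like and −0.02 in NK-like cells, beside 0.06, −0.04, −0.01, 0.00 and −0.02 for all genes. With coarser clusters 6 of the 10 were higher in macrophage-like cells at 12 months, and with clusters weighted equally 7 were higher in NK-like cells.

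**Figure D4:**
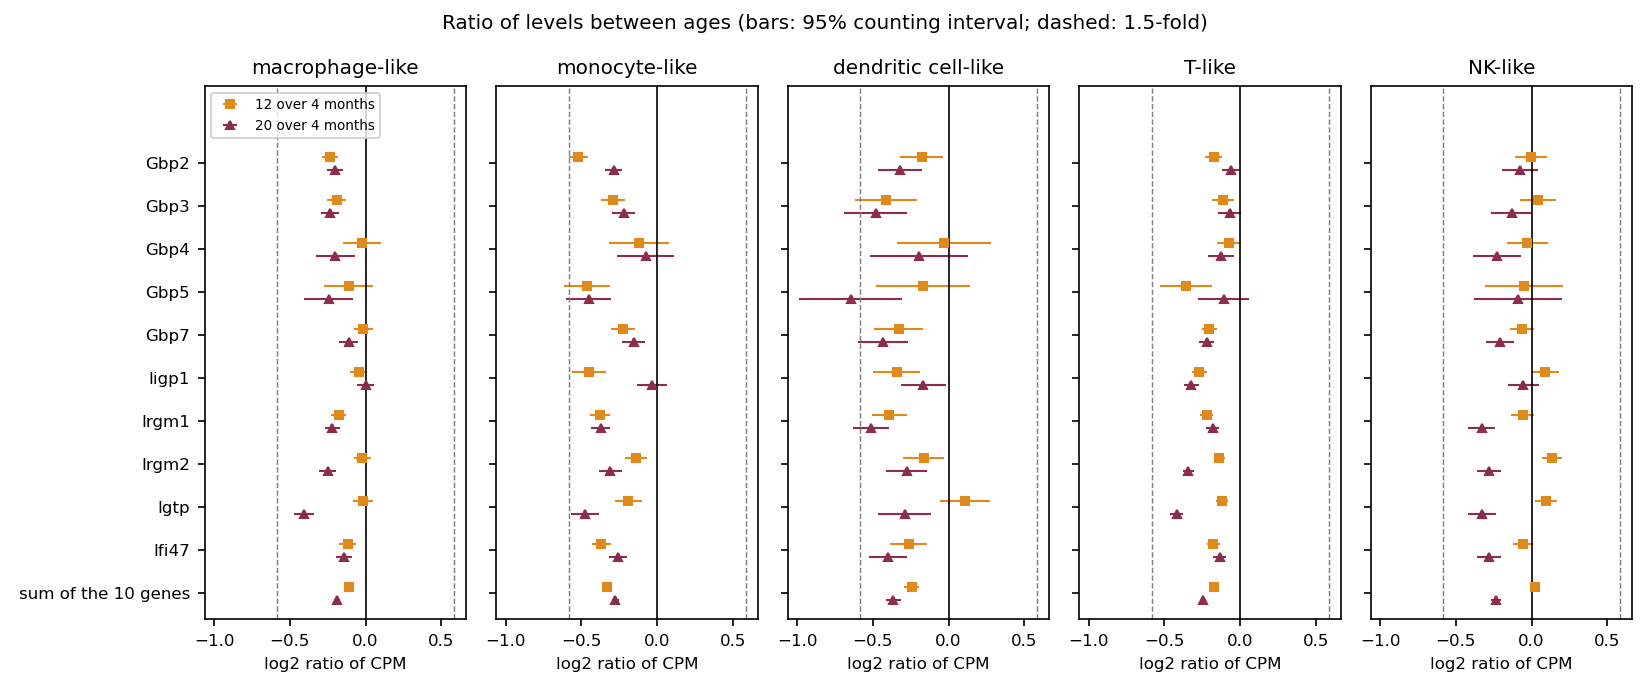
Log2 ratio of each gene's CPM at 12 (squares) and 20 months (triangles) over 4 months in each class, with 95% counting intervals, a solid line at no difference and dashed lines at 1.5-fold. Igtp at 20 months lies below 0 in all 5 classes, between −0.48 and −0.29, while Iigp1 in macrophage-like cells lies at 0.00.

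The genes did not share one course over the ages. Igtp was the gene with the lowest ratio at 20 months in monocyte-like (−0.48, −0.57 to −0.38), T-like (−0.42, −0.46 to −0.38) and macrophage-like cells (−0.41, −0.48 to −0.34), and was also lower in NK-like (−0.33, −0.42 to −0.24) and dendritic cell-like cells (−0.29, −0.47 to −0.12). At 12 months it was level with 4 months in macrophage-like cells (150 against 152 CPM). Its ratio at 20 months kept its sign under all 10 alternatives in each class. Igtp was lower in 30 of the 32 clusters, with the interval below 0 in 17. It was higher in 2, with the interval above 0 in 1. The clusters share the same libraries and are not replicates. Irgm2 had a like course, with −0.34 (−0.38 to −0.31) in T-like and −0.25 (−0.31 to −0.19) in macrophage-like cells at 20 months, and −0.14 (−0.17 to −0.10) and −0.02 (−0.08 to 0.03) at 12 months. Irgm1, Ifi47, Gbp2 and Gbp3 instead had most of the difference in place by 12 months in monocyte-like and macrophage-like cells: Irgm1 had a log2 ratio of −0.38 (−0.44 to −0.31) at 12 and −0.37 (−0.44 to −0.31) at 20 months in monocyte-like cells. Gbp2 was lower there at 12 months (−0.52, −0.58 to −0.46) than at 20 months (−0.29, −0.35 to −0.23).

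Iigp1 had different values over the ages in T-like, macrophage-like and monocyte-like cells. In T-like cells its level was lower at both ages, with log2 ratios of −0.27 (−0.32 to −0.22) and −0.32 (−0.37 to −0.27). The 12-month ratio lay between −0.30 and −0.05 over the 10 alternatives. By type, CD8 T-like cells were near level, at 174, 172 and 179 CPM of Iigp1. Regulatory (510, 479 and 405 CPM) and gamma-delta T-like cells (321, 287 and 102 CPM) were lower at 20 months, and the remaining T-like cells had 106, 90.8 and 103 CPM. Regulatory T-like cells made up 14.6% of the class at 4 and 8.02% at 20 months. In macrophage-like cells Iigp1 was level at 12 (−0.05, −0.10 to 0.01) and 20 months (0.00, −0.06 to 0.06). In monocyte-like cells it was lower at 12 months (−0.45, −0.56 to −0.34) and back near the 4-month level at 20 months (−0.03, −0.13 to 0.07), a sign that turned with clusters weighted equally (0.16). With 1 library per age the difference between classes was not tested.

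NK-like cells had higher Irgm2 at 12 months, 202 against 184 CPM, and lower at 20 months, 151 CPM. The log2 ratio at 12 months was 0.14 (0.07 to 0.20), and Igtp (0.10, 0.02 to 0.17) and Iigp1 (0.09, 0.001 to 0.18) were higher as well. The rest of the 10 genes in NK-like cells lay between −0.06 and 0.05 with intervals that held 0. At 20 months Irgm1 (−0.33, −0.42 to −0.24), Igtp, Ifi47 (−0.28, −0.36 to −0.21), Irgm2 (−0.28, −0.36 to −0.20), Gbp7 and Gbp4 were lower, with intervals below 0.

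The share of cells with any count of the 10 genes says little about the ages, since it is near its ceiling. With every cell thinned to 3000 counts it was 95.8%, 96.7% and 95.3% in macrophage-like cells (99.6%, 99.9% and 99.7% unthinned). It was lowest in dendritic cell-like cells, at 90.7% (88.3 to 92.8), 89.97% (87.3 to 92.2) and 85.5% (82.6 to 88.0). For Igtp alone, the share in T-like cells was 54.8% (53.4 to 56.2), 51.8% (50.5 to 53.0) and 45.4% (44.2 to 46.7), and 74.2%, 77.1% and 68.4% unthinned, with median depths of 5303, 6262 and 5920 counts. Of NK-like cells thinned alike, 14.8%, 27.4% and 24.0% had a count of Cd3e, with median depths of 7334, 7819 and 7026 counts. Whether these counts were free RNA was not tested. Across single cells the 10 genes went together weakly, with a median rank correlation of 0.06 to 0.11 over the 45 pairs in each class and library. The highest pair in T-like cells was Irgm2 and Igtp in all 3 libraries (0.269, 0.264 and 0.235), although reads over their shared exon bases cannot be told apart.

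**Figure D5:**
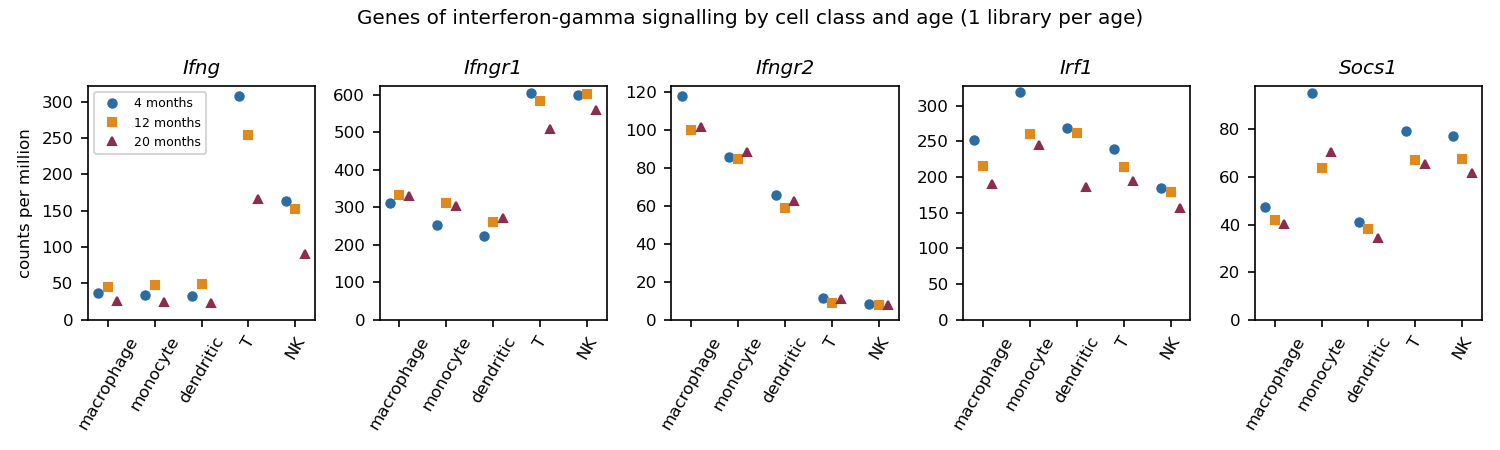
Level (vertical axes, CPM from 0, a scale for each gene) of the ligand Ifng, the receptor chains Ifngr1 and Ifngr2, the transcription factor Irf1 and the inhibitor Socs1 by class and age, 1 point per library. Ifng was highest in T-like cells, at 307 CPM at 4 and 166 CPM at 20 months.

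The genes upstream were read from a fixed list of 32 genes of the pathway. Ifng, the ligand, had 307, 254 and 166 CPM in T-like cells and 163, 152 and 89.6 CPM in NK-like cells. Both classes were lower at 20 than at 4 months, with log2 ratios of −0.89 (−0.93 to −0.84) and −0.86 (−0.96 to −0.76), which are past 1.5-fold. By type, CD8 T-like cells had 405, 293 and 212 CPM of Ifng and regulatory T-like cells 56.3, 64.1 and 44.6 CPM, so that the T cells highest in Igtp and Irgm2 were low in the ligand. In myeloid classes Ifng stood at 10.8% to 19.4% of the T-like level, close to the share of Cd3e in its lowest class. It is not read as expression by these cells, and its source was not tested. The receptor chain Ifngr1 was highest in T-like (604, 584 and 508 CPM) and NK-like cells (598, 602 and 558 CPM), and Ifngr2 in macrophage-like cells (118, 99.8 and 101 CPM), with 8.67 to 11.4 CPM in T-like cells.

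Downstream, the transcription factor Irf1 was lower at 20 than at 4 months in each class, from 269 to 186 CPM in dendritic cell-like cells and from 251 to 191 CPM in macrophage-like cells, and the inhibitor Socs1 stood at 95.3 and 70.4 CPM at those ages in monocyte-like cells. The chemokine Cxcl9 had 211, 137 and 137 CPM in monocyte-like cells (log2 ratio −0.62, −0.71 to −0.53, at 20 months), and Cxcl10 had 766, 562 and 446 CPM in dendritic cell-like cells (−0.78, −0.85 to −0.71). Irf8 in T-like cells also passed, at 62.9, 49.9 and 41.6 CPM. At 20 against 4 months, of the measured genes of this list 27 of 30 were lower in macrophage-like, 25 of 30 in monocyte-like, 24 of 29 in dendritic cell-like, 24 of 28 in T-like and 26 of 28 in NK-like cells. Of all genes tested, 53.9%, 41.8%, 47.9%, 67.8% and 60.9% were lower in these classes, in the same order. Past 1.5-fold the list had 0, 1, 1, 2 and 1 genes, all lower, beside 1.05%, 0.951%, 2.35%, 1.2% and 0.641% of all genes.

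Related lists gave the following values at 20 against 4 months. Of 16 other interferon-inducible GTPases, 14 were measured in macrophage-like and T-like cells and 13 in the other classes, and 13, 12, 10, 12 and 12 of them were lower in macrophage-like, monocyte-like, dendritic cell-like, T-like and NK-like cells, with medians of −0.16, −0.14, −0.23, −0.20 and −0.23. None passed 1.5-fold. Of 30 genes of the type I interferon response, 27, 29, 30, 29 and 30 were lower, with medians of −0.24, −0.32, −0.45, −0.23 and −0.31. Those past 1.5-fold were Ifit3b (−0.64) and Isg20 (−0.60) in monocyte-like cells and Cmpk2 (−0.70), Ifit2 (−0.67) and Ifit3 (−0.64) in dendritic cell-like cells. Beside both lists, 53.9%, 41.8%, 47.9%, 67.8% and 60.9% of all genes tested were lower. By 1.5-fold, 0.951% of all genes were lower in monocyte-like and 2.35% in dendritic cell-like cells. At 12 months the list's genes past 1.5-fold were Cmpk2 in monocyte-like cells (−0.59) and Ifit2 (−0.61) and Cmpk2 (−0.60) in dendritic cell-like cells. Of all genes, 0.891% and 1.46% were lower by that much in these 2 classes. Fewer cells of a type within a class and less RNA per cell cannot be told apart in such sums, and whether the lower Ifng bears on the GTPase levels was not tested.

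Genes with the most similar pattern were sought over the 15 sums of class and library, by Pearson's r of log2 (CPM + 1) among 6267 genes with a mean of at least 20 CPM. The points share libraries and depth, and r is a description. Closest to the mean of the 10 genes were Zbp1 (0.977), a sensor of unusual nucleic acids, A330040F15Rik (0.975), Gm6545 (0.974), Gm12250 (0.951), Ifi213 (0.95), Nmi (0.949), Itgb2 (0.945), Fam111a (0.939), Rtp4 (0.937) and Ube2a (0.935). Single genes kept different company. The closest were Mx1 for Gbp5 (0.985), Slc16a3 for Gbp2 (0.984), Cndp2 for Gbp3 (0.986), Ifi206 for Gbp7 (0.972), Ifi213 for Irgm1 (0.986), Nmi for Ifi47 (0.978), Glrx for Irgm2 (0.945), Gbp9 for Igtp (0.955), Mrpl27 for Iigp1 (0.896) and Gm43302, a locus that shares sequence with it, for Gbp4 (0.965). Against the mean of the other 9 genes, Ifi47 (0.954), Irgm1 (0.93) and Gbp7 (0.913) were closest and Iigp1 (0.347) and Gbp4 (0.183) farthest.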

How the data were processed

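Single-cell RNA-seq of sorted tumour leukocytes was measured in 3 libraries, made with a PIP-seq 3′ kit, per the labels' protocols. STAR 2.7.10a and GRCm38 are named in the submitters' processing notes. The authors deposited raw counts per gene and cell. The program that counted, how cells were called and whether molecules or reads were counted are not given in the sources used here. Of the gene identifiers, 98.1% occur in GENCODE M21.

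A minimum of 500 counts and a ceiling of 15% mitochondrial counts were set per cell, and the 6% with the highest Scrublet score in each library were removed. Cells were clustered with Scanpy 1.11.5 (2000 variable genes, 30 components, 15 neighbours, Leiden resolution 1.0, without the 10 genes and the 3 lists). 3 clusters that mixed classes were divided again at resolution 0.5. Classes were named by a marker score of at least 0.4 and 0.1 above other classes, a rule set after the clusters were seen. Counts were summed per class and library into CPM, with exact Poisson intervals, and exact conditional intervals for ratios. A gene counted as different at 1.5-fold, among genes with a mean of at least 10 CPM in that class. Coverage of the intervals was checked on simulated Poisson counts, which have no added spread between cells. The check cannot show how the intervals cover in these data. Alternatives were TMM (edgeR 4.0.16) and median-of-ratios factors (DESeq2 1.42.0), kept doublets, coarser clusters (resolution 0.5), cells or clusters of equal weight and left-out cells, of which 3 were chosen after seeing the data. Named are the 10 genes, list genes past 1.5-fold, the 10 genes most like their mean and the 1 most like each, and other pathway and marker genes for reference. One gene of the pathway list is not reported here. The genes and lists were chosen with earlier results of these data known.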

Additional observations from a re-analysis of the deposited data

Results flagged for a closer look

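In NK-like cells 3 of the 10 genes were higher at 12 than at 4 months while the same genes were lower in some other classes, with counting intervals on opposite sides of 0 for the classes named here. Irgm2 had a log2 ratio of 0.14 in NK-like cells against −0.14 in monocyte-like, −0.17 in dendritic cell-like and −0.14 in T-like cells. Igtp had 0.10 against −0.19 in monocyte-like and −0.12 in T-like cells, but was 0.11 (−0.06 to 0.27) in dendritic cell-like and −0.02 (−0.08 to 0.05) in macrophage-like cells. Iigp1 had 0.09 against −0.45 in monocyte-like, −0.34 in dendritic cell-like and −0.27 in T-like cells. With 1 library per age these differences between classes were not tested. With clusters weighted equally, the T-like and monocyte-like ratios of Irgm2 at 12 months turned to slightly above 0 (0.02 in each).

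Cells outside the 5 classes compared also carried these transcripts. Fibroblast-like cells, of which 51, 31 and 46 passed the CD45 sort, had summed levels of 2902, 2313 and 1830 CPM at 4, 12 and 20 months. Iigp1 alone had 892, 668 and 474 CPM there, above every other named type in each library. B-like cells, with 25, 26 and 22 cells, had 1105, 714 and 1218 CPM.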

How the results depend on the processing

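Of the 10 alternatives tried on each summed level, none turned a direction apart from NK-like cells at 12 months, whose ratio of 0.02 lay between 0.00 and 0.06. All values are log2 ratios of the sum of the 10 genes. With TMM scaling the 20-month ratios were −0.17 in macrophage-like, −0.342 in monocyte-like, −0.146 in T-like and −0.182 in NK-like cells, and the 12-month ratios −0.417 in monocyte-like and −0.137 in T-like cells. Median-of-ratios scaling gave −0.168, −0.334, −0.153 and −0.193 at 20 months, and −0.415 and −0.153 at 12 months, in the same classes. Dendritic cell-like over T-like cells was −0.766 and −0.768 under these scalings. Coarser clusters gave −0.051 and −0.157 in macrophage-like cells at 12 and 20 months, −0.307 and −0.235 in monocyte-like cells, and −0.17 for macrophage-like over T-like cells. Clusters of equal weight gave, at 12 and 20 months, −0.203 and −0.227 in macrophage-like, −0.151 and −0.105 in monocyte-like, −0.158 and −0.225 in dendritic cell-like and 0.059 and −0.141 in NK-like cells, −0.046 in T-like cells at 12 months, and −0.071 and 0.439 for macrophage-like and monocyte-like over T-like cells. Means of per-cell CPM gave −0.282 in T-like cells at 20 months, and −0.18, 0.219 and −0.757 for macrophage-like, monocyte-like and dendritic cell-like over T-like cells. Leaving out the 1% highest cells gave −0.222 in T-like cells at 20 months. Of the alternatives chosen after seeing the data, leaving out clusters of 1 library or led by no class marker gave −0.242 in T-like cells at 12 months, and counting the Arg1-led cluster as monocyte-like gave −0.295 at 12 months. The cause of these shifts was not tested. No paired analysis was possible because each age had 1 library, and for the same reason no library could be left out. Counting intervals hold neither the spread between cells nor that between animals, so that small ratios between ages may lie within these spreads.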
